A study of Ovis aries with 44 samples.

Results

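*DLK1* and *MEG3* are neighbours in an imprinted domain of the sheep genome, in which *DLK1* is transcribed from the paternal and *MEG3* from the maternal chromosome. Their transcripts were measured in the *semimembranosus*, a muscle of the hind leg, of 22 lambs that carried the callipyge (C) allele on neither, one or both chromosomes. Each probe set whose gene symbol in the platform annotation is *DLK1* or *MEG3* was taken, and each was kept apart. These were 2 probe sets of *DLK1* and 5 of *MEG3*, 7 in all of the 24016 probe sets tested on the array, and the 2 genes are among 9155 named by the probe sets that have a single symbol. In the order of their mean values they are called DLK1-A and DLK1-B, and MEG3-A to MEG3-E, and the identifier of each is given in the plots.

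The lambs came from planned matings and differed in genotype and age. Normal (+/+) and callipyge lambs, which inherited the allele from the sire (+/Cpat), were sampled at 10, 20, 30 and 80 d of age with 2 lambs per genotype and age. Lambs that inherited it from the dam (Cmat/+) and homozygous (C/C) lambs were sampled at 30 d with 3 lambs per genotype. No other allele is named for any group. Per the methods, lambs had been weaned to a mixed ration and moved to individual pens before 80 d, so this handling and age cannot be told apart at 80 d. RNA of each lamb was hybridized to its own bovine Affymetrix array. The deposited design text counts 10 lambs, whereas the labels give 22 arrays, of which 10 are from 30 d.

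*DLK1* encodes a transmembrane protein with repeats like those of epidermal growth factor, which is related to the ligands of Notch receptors and is known for its roles in fat and muscle development. *MEG3*, called GTL2 in the sheep annotation, is a long non-coding RNA. The callipyge mutation lies between both genes, and its known phenotype is a postnatal enlargement of the muscles of the loin and hindquarters in lambs that inherit it from the sire only. In the RefSeq annotation of the sheep assembly ARS-UI_Ramb_v3.0 the order of the genes runs *BEGAIN*, *DLK1*, GTL2 and *RTL1*. The files name no genome build, so no positions are given here.

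The probes were designed on bovine sequence and read sheep RNA, so the values of different probe sets were not set against each other. In the methods, at least one primer of each quantitative PCR assay lies within the region that the probe set reads. The primers of *DLK1* and of CB439344, an expressed sequence that the study names *MEG8*, are therefore shown as the sequence at hand from the transcripts that these probe sets detect. They are written in lower case from 5′ to 3′, without capitals because no base is singled out.
*DLK1* forward primer: cccgtcctcttgctcctgct
*DLK1* reverse primer: ggctggcacctgcacacact
CB439344 forward primer: cactgaaaagcacgtgccttct
CB439344 reverse primer: gatttagcatctgccatggacaa
Both *DLK1* primers have 20 bases and 65.0% G or C, and those of CB439344 have 22 and 23 bases with 50.0% and 43.5%.

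Values are on the log2 scale of RMA unless an intensity is named, and MAS5 intensities are linear and were not scaled between arrays. The mean RMA value over all probe sets was 5.66 to 5.70 on 12 arrays, namely all those of 30 d and the first arrays of +/+ and +/Cpat at 20 d. It was 5.50 to 5.52 on the other 10 arrays, and each set held as many +/+ as +/Cpat arrays. The 2 first arrays at 20 d were dim, with median intensities of 11.5 and 13.3 against 14.3 to 24.8 on the other arrays. The muscle genes *ACTA1* and *CKM*, a skeletal actin and the muscle creatine kinase, had mean RMA values of 14.73 and 14.24, against array medians of 5.24 to 5.45.

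*DLK1* was higher in callipyge than in normal lambs at each of the 4 ages. The probe set DLK1-A had RMA values of 11.35 and 10.97 in the +/Cpat lambs at 10 d against 9.49 and 9.06 in the +/+ lambs. At 20 d it was 11.80 and 11.52 against 9.25 and 9.23. At 30 d it was 11.88 and 11.40 against 9.39 and 8.47, and at 80 d 11.77 and 11.98 against 9.54 and 9.52. The lowest of the 8 callipyge lambs thus lay above the highest of the 8 normal lambs, which held for 39 (0.162%) of all probe sets. The same was seen in the MAS5 intensities, which were 1305 to 4156 with a median of 2333 in callipyge and 173.9 to 611 with a median of 473 in normal lambs.

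Averaged over the ages, *DLK1* was 5.07-fold higher in callipyge muscle by DLK1-A (2.34 on the log2 scale, SE 0.130, adjusted p = 5.4e-07 by limma, 8 lambs of either genotype). In an exact permutation test of genotype within age (two-sided, 1296 relabelings) p was 0.00154, the smallest this design allows. Within the 6 +/+ and +/Cpat arrays of 20 and 30 d with the higher mean RMA value the difference was 2.63, and within the other 10 arrays it was 2.17. Of all probe sets, 784 (3.26%) passed the threshold of 0.1 in either direction and 381 (1.59%) were higher. *DLK1* had the smallest p of these and the third largest log2 difference of all probe sets, and *MEG3* had the second largest.

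The difference of *DLK1* passed the threshold at each age, whereas the share of probe sets that passed within an age was small. It was 1.89 (SE 0.260, adjusted p = 0.0157) at 10 d, where 14 (0.0583%) of all probe sets passed. It was 2.42 (adjusted p = 0.00156) at 20 d, where 9 (0.0375%) passed, and 2.71 (adjusted p = 0.000896) at 30 d, where 15 (0.0625%) passed. At 80 d it was 2.35 (adjusted p = 0.00182), and 153 (0.637%) passed. With MAS5 values the calls at 10, 20 and 30 d were lost (adjusted p = 0.475, 0.104 and 0.430), with differences of 1.76, 2.89 and 2.57.

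The second *DLK1* probe set, DLK1-B, was also higher in callipyge lambs, by 0.56 over the 4 ages (SE 0.123, adjusted p = 0.0333, exact p = 0.00154, two-sided). Its values were 4.86 and 5.48 in the +/Cpat lambs at 10 d against 4.84 and 4.42 in the +/+ lambs, and 5.04 and 5.59 at 20 d against 5.00 and 4.83. The 30 d lambs had 5.77 and 5.84 against 5.33 and 4.71, and those at 80 d had 5.33 and 5.12 against 4.68 and 4.77. Both callipyge lambs lay above both normal lambs at each age, although at 10 and 20 d the margin was small. This pattern was shown by 170 (0.708%) of all probe sets, and by 4 of the 7 probe sets of *DLK1* and *MEG3*. The difference did not pass the threshold within any age, and the call over the 4 ages was lost with MAS5 values (0.69, adjusted p = 0.278), without 30 d or 80 d (adjusted p = 0.158 and 0.209) and within either set of arrays (0.255 and 0.114).

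*MEG3*, the transcript of the maternal chromosome, was also higher in lambs whose C allele came from the sire. MEG3-A had RMA values of 10.90 and 10.09 in the +/Cpat lambs at 10 d against 9.35 and 7.43 in the +/+ lambs, and 11.22 and 10.90 at 20 d against 8.54 and 8.03. At 30 d it was 9.63 and 9.65 against 7.62 and 6.94, and at 80 d 10.52 and 10.56 against 7.69 and 6.56. All 8 callipyge lambs lay above all 8 normal lambs, and the normal lambs at 10 d differed more from each other than any other pair of one group. The intensities were 411 to 1417 with a median of 780 in callipyge lambs and 76.9 to 314.6 with a median of 136 in normal lambs.

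Over the 4 ages *MEG3* was 6.33-fold higher in callipyge muscle by MEG3-A (2.66 on the log2 scale, SE 0.244, adjusted p = 4.95e-05 by limma). MEG3-B, which was designed on the same expressed sequence and so is no independent reading, was higher by 0.94 (SE 0.0945, adjusted p = 0.000111). The exact permutation p (two-sided) was 0.00154 for each. MEG3-A differed by 2.52 within the same 6 arrays and by 2.80 within the other 10. Within ages, MEG3-A differed by 2.10, 2.77, 2.36 and 3.41 at the ages in order, of which the last passed the threshold in this fit to 16 arrays (adjusted p = 0.00705, against 0.211, 0.114 and 0.240 at the younger ages). MEG3-B passed at 20 d (1.45, adjusted p = 0.0106) and 80 d (1.21, adjusted p = 0.0140), and its differences at 10 and 30 d were 0.65 and 0.44.

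**Figure D1:**
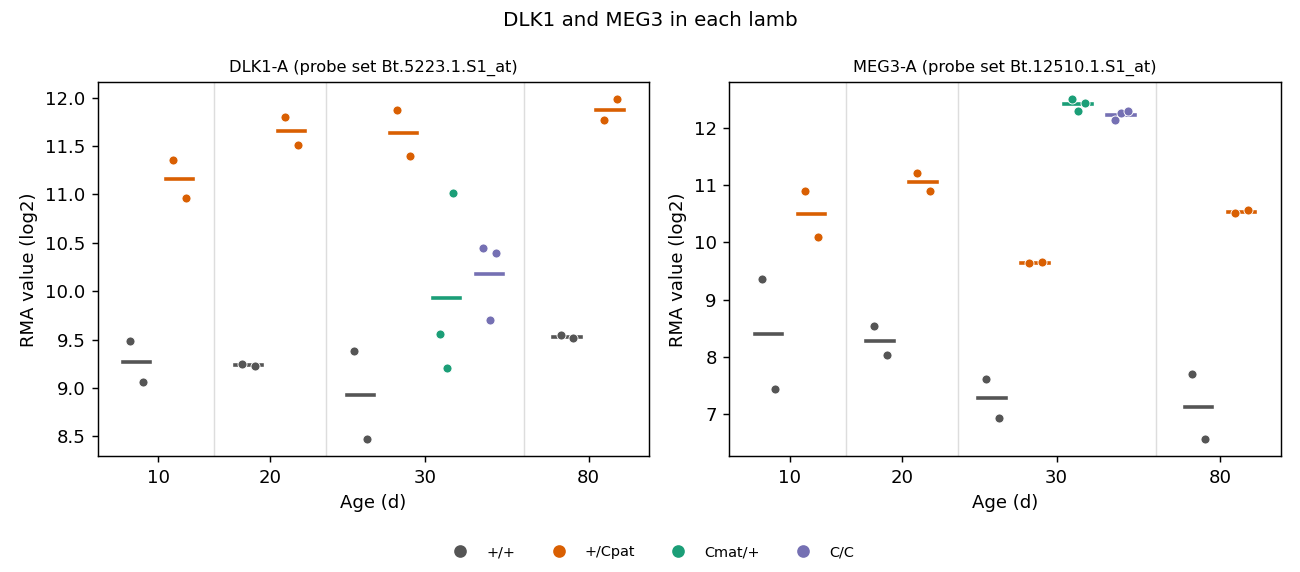
RMA values (log2) of *DLK1* probe set DLK1-A (left) and *MEG3* probe set MEG3-A (right) by age in days, with 1 point for each of 22 lambs, coloured by genotype, and a bar for each group mean. *DLK1* was 10.97 to 11.98 in the 8 +/Cpat lambs and above 10.97 in only 1 other lamb (Cmat/+, 11.02), whereas *MEG3* was highest in the 6 lambs with a maternal C allele (12.14 to 12.50).

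The remaining *MEG3* probe sets did not pass the threshold for the paternal allele. Their differences over the 4 ages were 0.35 for MEG3-C (SE 0.147, adjusted p = 0.339), 0.26 for MEG3-D (SE 0.0943, adjusted p = 0.236) and 0.12 for MEG3-E (SE 0.110, adjusted p = 0.765). Thus 2 of 2 *DLK1* and 2 of 5 *MEG3* probe sets were higher, and none was lower.

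For neither gene did a change of the genotype difference with age pass the test. For the genotype by age interaction the adjusted p of limma was 0.9998 for all 7 probe sets, and 0 (0.0%) of all probe sets passed, with 783 at an unadjusted p under 0.05. The smallest unadjusted p of the 7 was 0.00626, for MEG3-B. MAS5 values gave 0 as well, with 1282 at an unadjusted p under 0.05, whereas 150 passed without the second +/Cpat lamb at 20 d and 395 within the 6 +/+ and +/Cpat arrays with the higher mean RMA value, which hold 1 lamb per genotype at 20 d. The range of the *DLK1* differences across ages was 0.82 and that of *MEG3* (MEG3-A) 1.31.

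*MEG3* also varied with age. The group means of MEG3-A ran 8.39, 8.28, 7.28 and 7.13 from the youngest to the oldest +/+ lambs, and 10.49, 11.06, 9.64 and 10.54 in +/Cpat lambs. The means of both genotypes together differed by up to 1.21 between ages (adjusted p = 0.0646), and those of MEG3-B by 1.02 (adjusted p = 0.00139) and of MEG3-E by 0.69 (adjusted p = 0.0216). For age 6180 (25.7%) of all probe sets passed, against which the 3 of 7 probe sets here have to be read, and neither *DLK1* probe set passed (adjusted p = 0.191 and 0.144). The 30 d arrays form most of the set with higher mean RMA values. Within the other arrays (10, 20 and 80 d) the difference of MEG3-A was 0.63 (adjusted p = 0.681), with MAS5 values it was 1.39 (adjusted p = 0.473), and without both dim arrays at 20 d it was 1.00 (adjusted p = 0.163). The call was also lost without the first lamb of either genotype at 20 d (adjusted p = 0.110 for +/Cpat and 0.133 for +/+), either +/Cpat lamb (0.144 and 0.143) or the second +/+ lamb (0.172) at 30 d, and the first +/Cpat lamb at 80 d (0.101). *DLK1* passed for age only without the first +/+ lamb at 30 d (0.65, adjusted p = 0.0604).

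*MEG3* was far higher in lambs with a maternal C allele than in the others. At 30 d MEG3-A had RMA values of 12.50, 12.30 and 12.44 in the Cmat/+ lambs and of 12.14, 12.27 and 12.31 in the C/C lambs, against 9.63 and 9.65 in the +/Cpat and 7.62 and 6.94 in the +/+ lambs. The intensities were 3708, 3722 and 4538 in Cmat/+, 3187, 4340.3 and 4068 in C/C, 411 and 585 in +/Cpat and 133 and 103 in +/+ lambs. All 6 lambs with a maternal C allele lay above the 4 without, which was true of 3 of the 7 probe sets, all of *MEG3*, and of 295 (1.23%) of all probe sets.

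Between Cmat/+ and +/+ lambs 3 of the 5 *MEG3* probe sets passed the threshold and no other probe set of the array did. MEG3-A was 35.2-fold higher (log2 difference 5.14, SE 0.173, n = 3 and 2, adjusted p = 1.75e-07 from limma). MEG3-B was higher by 2.69 (SE 0.145, adjusted p = 1.39e-05) and MEG3-C by 1.60 (SE 0.196, adjusted p = 0.0446). These 3 make up 0.0125% of all probe sets. The count was 7 with array weights, 6 with all 22 arrays in 1 fit, 5 with MAS5 values or without either +/Cpat lamb and 8 without the first C/C lamb, of which 5 were lower. It was 2 with variances not shared between probe sets, with the replicate block, and without either +/+ lamb or the first Cmat/+ lamb. The other *MEG3* probe sets differed by 0.65 (MEG3-D, adjusted p = 0.836) and 0.14 (MEG3-E, adjusted p = 0.965).

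The same 3 *MEG3* probe sets were higher in C/C than in +/Cpat lambs, a comparison that shares no lamb with the one above, although both come from 1 fit. The differences were 2.59 (SE 0.173, adjusted p = 0.000266), 2.04 (SE 0.145, adjusted p = 0.000266) and 1.50 (SE 0.196, adjusted p = 0.0283), and 21 (0.0874%) of all probe sets passed. MEG3-C had values of 8.50, 8.89 and 8.58 in Cmat/+, 8.37, 8.91 and 8.93 in C/C, 7.25 and 7.23 in +/Cpat and 7.28 and 6.84 in +/+ lambs at 30 d. It thus separated the lambs by the maternal allele, while the 4 lambs without it overlapped whether or not they carried a paternal one.

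C/C and Cmat/+ lambs, which both have a maternal C allele, had levels of *MEG3* whose difference did not pass the test. The difference of MEG3-A was -0.18 (95% interval -0.52 to 0.16, adjusted p = 0.946), and that of MEG3-B was -0.21 (95% interval -0.50 to 0.07). The groups overlapped in MEG3-A, but in MEG3-B all 3 C/C lambs (9.46, 9.72 and 9.67) lay below the Cmat/+ lambs (9.87, 9.78 and 9.85). The scaled MAS5 intensities of MEG3-A had the same order (20957 to 22266 against 23173 to 29240). These probe sets were designed on the same expressed sequence and read on the same arrays, so they are no independent readings. How many of all probe sets have this order was not counted. In this comparison 0 (0.0%) of all probe sets passed in limma, with 1187 at an unadjusted p under 0.05, and with MAS5 values 0 passed, with 1248. With array weights, with all 22 arrays in 1 fit and without the second Cmat/+ lamb 1 passed.

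Over all 10 lambs at 30 d, the maternal allele went with more *MEG3*, by 3.87 (MEG3-A, SE 0.123, adjusted p = 8.9e-08), 2.36 (MEG3-B, SE 0.103, adjusted p = 1.34e-06) and 1.55 (MEG3-C, SE 0.139, adjusted p = 0.00198). The exact permutation p was 0.01 for each (two-sided, 100 relabelings within paternal allele), the smallest this design allows. MEG3-D differed by 0.42 (adjusted p = 0.433, exact p = 0.05) and MEG3-E by 0.21 (adjusted p = 0.699, exact p = 0.14). Of all probe sets, 27 (0.112%) passed, and the 3 of *MEG3* had the smallest p-values among them.

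**Figure D2:**
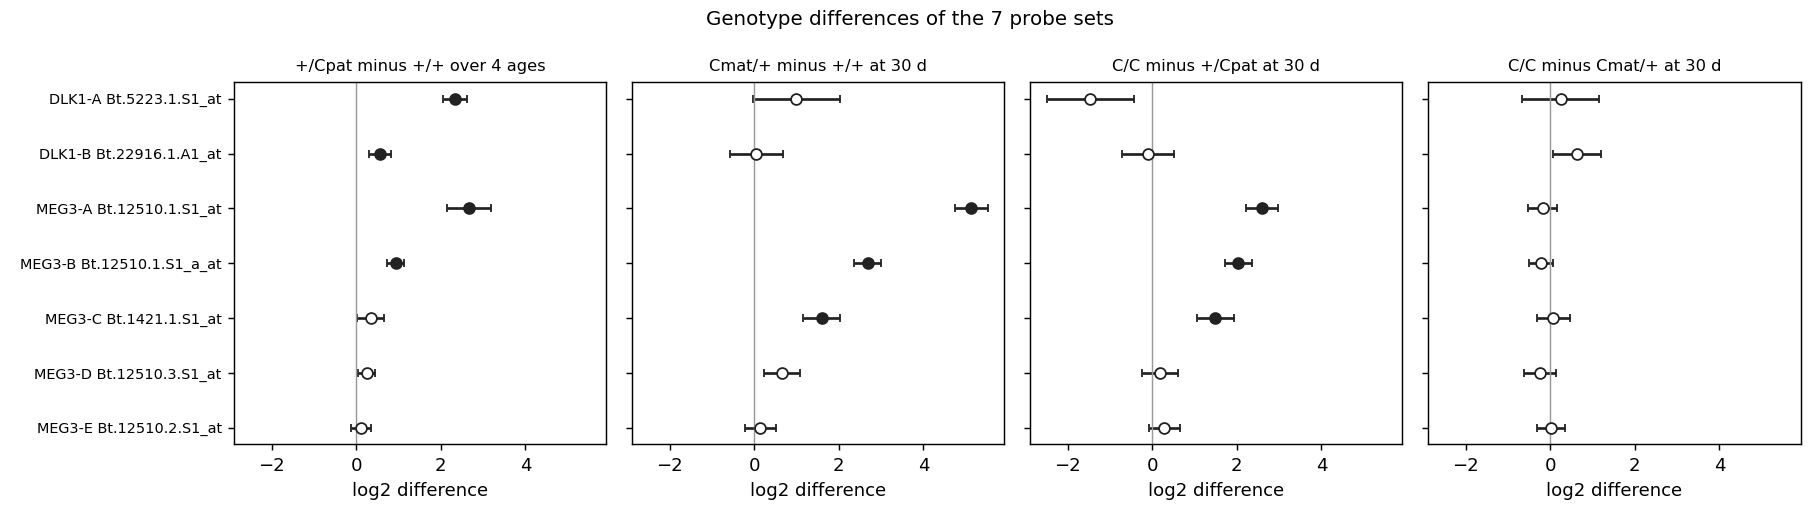
log2 differences of RMA values with 95% confidence intervals for the 2 *DLK1* and 5 *MEG3* probe sets in 4 comparisons of genotypes, with filled points where the adjusted p was under 0.1. *DLK1* passed only over the 4 ages, where it was higher in +/Cpat, and 3 *MEG3* probe sets passed in both comparisons of lambs with and without a maternal C allele.

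By MEG3-A, the paternal and maternal alleles did not add up on the log2 scale, and the interaction passed for only 1 of 5 *MEG3* probe sets. The maternal allele differences without and with a paternal one were 2.69 and 2.04 for MEG3-B and 1.60 and 1.50 for MEG3-C. Without a maternal C allele, the paternal one went with a difference of 2.36 at 30 d (+/Cpat minus +/+, MEG3-A, SE 0.190, adjusted p = 0.00187 in the fit to the 10 arrays of 30 d, where 4 or 0.0167% of all probe sets passed). With a maternal allele the difference was the -0.18 above. The allele interaction was -2.54 (95% interval -3.08 to -2.00, SE 0.245, adjusted p = 0.0120), and 3 (0.0125%) of all probe sets passed. The other 2 of these were *PARK7* and *UCHL1*, of which the first encodes a protein that protects against oxidative stress and the second a ubiquitin hydrolase of neurons. With MAS5 values the interaction of *MEG3* was -2.13 (adjusted p = 0.482) and the +/Cpat difference 1.85 (adjusted p = 0.483), so both calls rest on the RMA values.

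Averaged over lambs with and without a maternal allele, 1 of 5 *MEG3* probe sets passed for the paternal allele. MEG3-B differed by 0.12, MEG3-C by 0.13, MEG3-D by -0.003 and MEG3-E by -0.05. MEG3-A was higher by 1.09 (SE 0.123, adjusted p = 0.0334), 1 of 4 (0.0167%) probe sets that passed, which averages the differences of opposite sign given above. The exact permutation p was 0.317 (two-sided, 120 relabelings within maternal allele, smallest possible 0.0167). This call was lost without either +/Cpat lamb (adjusted p = 0.192 and 0.154), without the first or second Cmat/+ lamb (0.117 and 0.116) and without the third C/C lamb (0.140).

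*DLK1* differed in its order of genotypes from *MEG3* at 30 d. By DLK1-A it was 9.56, 9.21 and 11.02 in the Cmat/+ lambs and 10.44, 9.70 and 10.39 in the C/C lambs. The intensities were 405, 466 and 1585 in the Cmat/+ lambs and 832, 678 and 1249.5 in the C/C lambs, against 3367 and 2324 in the +/Cpat and 504 and 335 in the +/+ lambs. The third Cmat/+ lamb stood apart from the other lambs of its genotype and was above all C/C lambs, and DLK1-B was also highest in that lamb among the Cmat/+ lambs, at 5.60 against 5.11 and 4.51. Its *MEG3* value, 12.44, lay between those of the other Cmat/+ lambs.

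By group means the order of *DLK1* was +/Cpat (11.64 ± 0.34, SD, n = 2), C/C (10.18 ± 0.42, n = 3), Cmat/+ (9.93 ± 0.96, n = 3) and +/+ (8.93 ± 0.65, n = 2). C/C lambs lay below both +/Cpat lambs and above both +/+ lambs, whereas Cmat/+ overlapped with its neighbours C/C and +/+. Groups of 2 and 3 lambs can lie apart without a difference between genotypes. The number of probe sets that show this order was not counted. C/C minus +/Cpat was -1.46 (SE 0.464, 95% interval -2.48 to -0.44, adjusted p = 0.537). Cmat/+ minus +/+ was 1.00 (SE 0.464, 95% interval -0.02 to 2.02, adjusted p = 0.954), and without the third Cmat/+ lamb it was 0.45 (adjusted p = 0.715). C/C minus Cmat/+ was 0.25 (95% interval -0.66 to 1.16, adjusted p = 0.960) and 0.80 without that lamb (adjusted p = 0.402), and it turned to -0.11 without the second Cmat/+ lamb (adjusted p = 0.9998).

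None of the effects on *DLK1* passed the threshold in the fit to the 10 arrays of 30 d. The paternal allele went with a difference of 1.48 (SE 0.328, 95% interval 0.76 to 2.20, adjusted p = 0.482, exact permutation p = 0.133, two-sided), the maternal allele with -0.23 (95% interval -0.95 to 0.49, adjusted p = 0.910), and the interaction was -2.46 (SE 0.656, 95% interval -3.90 to -1.01, adjusted p = 1.0). The +/Cpat minus +/+ difference of 2.71 has an SE of 0.508 in this fit (adjusted p = 0.302) and 0.260 in the fit to 16 arrays, where it passed. Without the third Cmat/+ lamb, that difference (adjusted p = 0.0417) and the paternal allele (1.75, adjusted p = 0.0677) passed. The second probe set, DLK1-B, differed by 0.71 with the paternal allele (SE 0.200, adjusted p = 0.605, exact permutation p = 0.0333, two-sided) and by 0.63 between C/C and Cmat/+ (95% interval 0.08 to 1.19, adjusted p = 0.946).

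**Figure D3:**
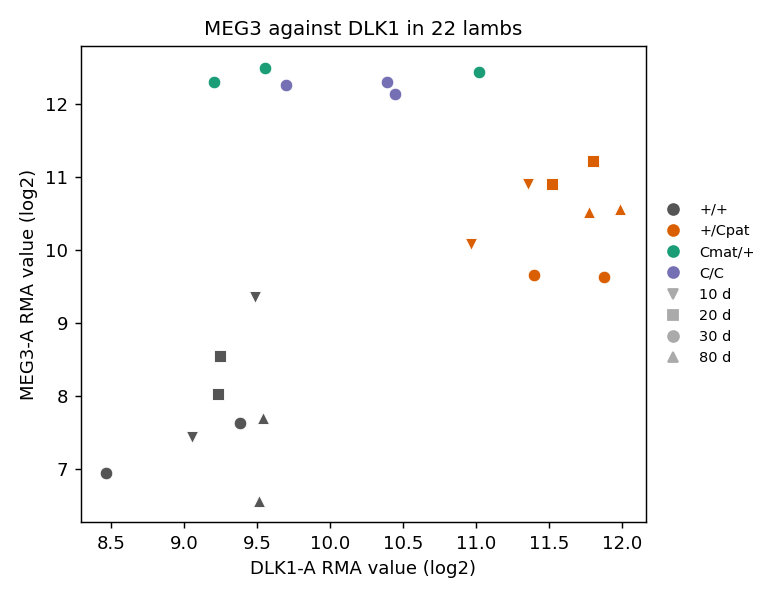
RMA values (log2) of *MEG3* (MEG3-A, vertical) against *DLK1* (DLK1-A, horizontal) in 22 lambs, coloured by genotype and with a symbol for each age. The 8 +/Cpat lambs combine *DLK1* of 10.97 to 11.98 with *MEG3* of 9.63 to 11.22, and the 6 lambs with a maternal C allele share *MEG3* of 12.14 to 12.50 over *DLK1* from 9.21 to 11.02.

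The probe sets of each gene varied together to different degrees. Over the 22 lambs, centred on age and array set, the 2 *DLK1* probe sets correlated with r = 0.750. With MEG3-A, r was 0.943 for MEG3-B, 0.824 for MEG3-C, 0.746 for MEG3-D and 0.553 for MEG3-E. These values describe lambs of 4 genotypes, and both probe sets of a pair were read on the same arrays. No r is given for *DLK1* with *MEG3*, since the genotypes lie apart in the plot of one gene against the other.

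**Figure D4:**
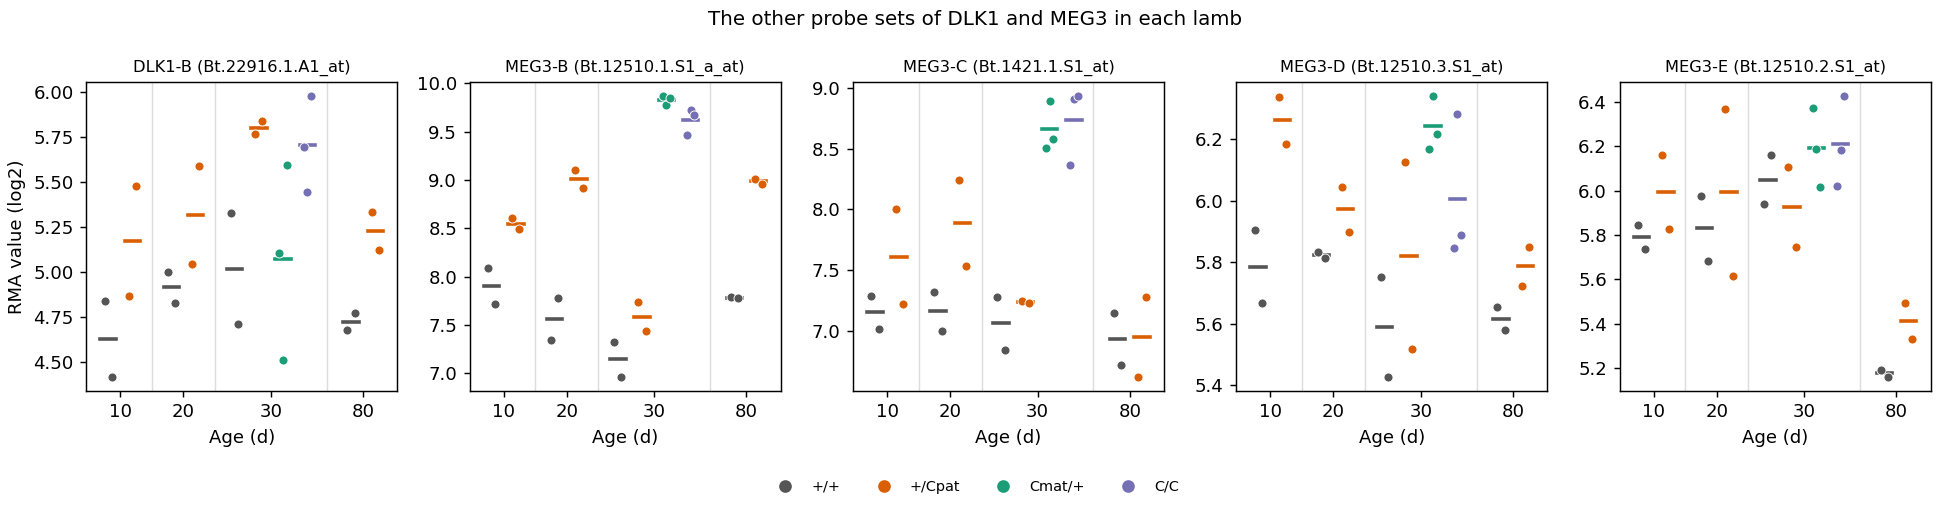
RMA values (log2) of the remaining *DLK1* probe set and the 4 remaining *MEG3* probe sets by age in days, with 1 point for each of 22 lambs, coloured by genotype, a bar for each group mean and a separate vertical scale in each panel. The lambs with a maternal C allele stand above the others at 30 d for MEG3-B and MEG3-C, and overlap with them for MEG3-D and MEG3-E.

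*MEG8*, another maternally transcribed non-coding RNA of the domain, was near the bottom of the scale. The probe set of that name in the platform annotation ranged from 2.77 to 3.75 and did not pass in any comparison (0.09 over the 4 ages, adjusted p = 0.787, and 0.11 for the maternal allele, adjusted p = 0.895). CB439344, whose primers are given above, was 3.56 to 4.01 in the Cmat/+ and 3.22 to 3.89 in the C/C lambs, against 2.71 to 3.49 in the +/+ and +/Cpat lambs of all ages. All 3 Cmat/+ lambs lay above these. The C/C lambs overlapped with lambs of other ages but lay above the +/+ and +/Cpat lambs at 30 d, of which the highest had 3.19. All 6 lambs with a maternal C allele lay above the 4 without at 30 d in 295 (1.23%) of all probe sets. The difference of CB439344 for the maternal allele was 0.58 (SE 0.134, adjusted p = 0.228 from limma, exact permutation p = 0.02, two-sided). CB439344 correlated with *MEG3* (MEG3-A) with r = 0.789 over 22 lambs, which pools 4 genotypes that differ in *MEG3*. Of the 6 genes listed for the domain, *DLK1*, *MEG3* and *MEG8* had a named probe set, and *RTL1*, *MEG9* and *DIO3* had none in the annotation used here.

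Of the genes around the domain 1 passed the test, and of the other imprinted genes none did, against 3.26% of all probe sets. Here and in the lists below, each gene was read by its brightest probe set. Bright probe sets passed more often, with 893 of the 12008 above the median brightness when these were tested alone. Of 11 measured genes that flank the domain, 1 was higher in callipyge lambs and none lower, with a median difference of 0.04 against -0.004 over all probe sets. It was *HSP90AA1*, which encodes a chaperone (0.50, SE 0.124, adjusted p = 0.0569), and *PPP2R5C*, a phosphatase subunit, differed by 0.46 (adjusted p = 0.105). Of 22 other imprinted genes 0 passed for either allele. The smallest p-values for the paternal allele were those of *NDN* (-0.25, adjusted p = 0.141) and *IGF2*, a fetal growth factor (0.47, adjusted p = 0.150). *IGF2* had the smallest p for the maternal allele as well, with a difference of -0.65 (adjusted p = 0.295).

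Of the genes of Notch signalling 1 passed the test, and so did 1 of those that bind, cleave or act downstream of DLK1, against 3.26% of all probe sets. Of 19 measured Notch genes, 1 was lower in callipyge lambs and none higher (median -0.04), and this was *ADAM10*, a protease that cleaves Notch receptors (-0.35, SE 0.0952, adjusted p = 0.0808). Of 10 genes for proteins that bind or cleave DLK1 or act downstream, 1 was higher (median 0.01), and this was *MAP2K1*, a kinase that activates ERK (0.50, SE 0.0886, adjusted p = 0.00899). *FN1*, which encodes the matrix protein fibronectin, differed by -0.32 (adjusted p = 0.397). Neither list had a gene that passed for the maternal allele. *NOTCH1* and *HES1*, a receptor and a target of the pathway, are among the genes without a named probe set here.

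Among 15 measured myogenic factors and developmental myosins, 2 were higher and 1 was lower in callipyge lambs, with a median of 0.02, against 3.26% of all probe sets called and 1.59% higher. *MEF2A*, a muscle transcription factor, was higher by 0.39 (SE 0.0960, adjusted p = 0.0558) and *MYH8*, the perinatal myosin heavy chain, by 0.48 (SE 0.135, adjusted p = 0.0995). *FST*, an inhibitor of myostatin, was lower (-0.37, SE 0.0966, adjusted p = 0.0695), and *MSTN*, which encodes myostatin, differed by 0.81 (SE 0.239, adjusted p = 0.115). For the maternal allele 0 of the 15 passed, and the smallest p was that of *MEF2A* (-0.41, adjusted p = 0.355).

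Markers of cell types were compared because DLK1 is also made by cells other than fibres, and in whole muscle fewer cells of a type and less RNA per cell cannot be told apart. The counts for each list have to be read against 784 (3.26%) of all probe sets called over the 4 ages, of which 403 were lower. Of 12 fibroblast and connective tissue genes, 2 were lower in callipyge lambs (*COL1A1*, a collagen chain, -0.52, adjusted p = 0.0937, and *DPT*, a matrix protein, -0.49, adjusted p = 0.0569), with a median of -0.20. The summed scaled intensity of that list was 50760 to 147300 in +/Cpat and 86950 to 125400 in +/+ lambs. At 30 d it was 51660 to 94530 in C/C and 61280 to 115600 in Cmat/+ lambs, against 86950 to 105200 in +/+ and 87410 to 91960 in +/Cpat lambs. It was lower in +/Cpat than in +/+ lambs without overlap at 10 d (70700 to 81040 against 97900 to 125400) and at 80 d (50760 to 68340 against 92760 to 95040), and higher at 20 d (105200 to 147300 against 87320 to 93390). For the maternal allele 0 of the 12 passed (median -0.24). Of 10 endothelial genes 1 was lower (*FLT1*, a receptor of vascular growth factor, -0.31, adjusted p = 0.0828), with a median of -0.21, like that of the fibroblast list, and sums of 7162 to 16600 and 7230 to 17560. Of 7 fibre genes 1 was lower (*MYH7*, the slow myosin heavy chain, -0.57, adjusted p = 0.0365), with a median of 0.06 and sums of 380300 to 812700 and 410000 to 726500. No marker of adipocytes (9 genes, median -0.05, sums of 983 to 2254 and 1234 to 2821), of smooth muscle and pericytes (9 genes, median -0.04, 47870 to 98050 and 48620 to 92280) or of blood and immune cells (9 genes, median -0.11, 817 to 1579 and 933 to 2545) passed. At 80 d the endothelial sums (7281 to 8814 against 11640 to 12000) and the blood sums (1048 to 1215 against 1758 to 2545) of +/Cpat lambs lay below those of +/+ lambs. Without overlap, +/Cpat sums also lay below at 10 d for adipocytes, at 20 d for endothelial cells and at 30 d for blood, fibres and smooth muscle, and above at 10 and 80 d for fibres and at 80 d for smooth muscle. With 2 lambs per genotype and age, sums can lie apart without a difference between genotypes. How many of all probe sets separate in this way within 1 age was not counted. The sums at 20 d include the dim array of each genotype.

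Of 7 nerve and Schwann cell markers 1 was higher in callipyge lambs, *UCHL1*, by 1.43 (SE 0.225, adjusted p = 0.00375). The same gene was the only marker of any list to pass for the maternal allele (-1.01, SE 0.152, adjusted p = 0.0671). That value averages C/C minus +/Cpat and Cmat/+ minus +/+, which differed by -2.45 (allele interaction, adjusted p = 0.0485 by limma). It is therefore not the difference in lambs without a paternal C allele. At 30 d *UCHL1* was higher by 2.55 in +/Cpat than in +/+ lambs. Of all probe sets, 3.26% were called over the 4 ages and 0.112% for the maternal allele. The median difference of this list was 0.05. Its Schwann cell markers *SOX10* and *S100B* differed by 0.07 (adjusted p = 0.796) and -0.30 (adjusted p = 0.381 by limma). The sums were 946 to 2189 in +/Cpat and 962 to 1415 in +/+ lambs. They were higher in +/Cpat than in +/+ lambs without overlap at 10, 20 and 30 d, at 30 d with 1422 and 1565 against 674 to 1283 in all other lambs. These sums include *UCHL1* itself and were not taken without it, and the limit of few lambs per group applies here too. The part of these markers in the levels of *DLK1* and *MEG3* was not tested.

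The probe sets that varied most like *DLK1* across the 22 lambs were those of *DNTTIP1* (r = 0.916), *HERC4* (0.896), *CSE1L* (0.888), *PLCL2* (0.886) and *PARK7* (0.883). At 30 d *DNTTIP1*, a part of a histone deacetylase complex, was 11.57 and 11.84 in +/Cpat, 10.47, 10.80 and 11.06 in C/C, 9.77, 9.54 and 10.69 in Cmat/+ and 9.87 and 9.94 in +/+ lambs. The third Cmat/+ lamb, in which *DLK1* was high, also had more *DNTTIP1* than the other Cmat/+ lambs, but *DNTTIP1* was chosen for its likeness to *DLK1* over lambs that include this one. *PARK7* was 12.26 and 12.19 in the +/Cpat lambs, 10.99, 11.14 and 11.12 in C/C, 11.10, 11.10 and 11.16 in Cmat/+ and 11.01 and 10.78 in +/+ lambs. It was therefore high in the +/Cpat lambs only and showed no step in the third Cmat/+ lamb or in C/C lambs (C/C minus +/Cpat -1.14, SE 0.114, adjusted p = 0.00410). *PARK7* too was chosen for its likeness to *DLK1* over these lambs, which favours a difference between +/Cpat and C/C lambs.

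Most like the *MEG3* probe set MEG3-A were *MAN2A2* (r = 0.898), *SMARCA4* (0.842), *TBCA* (0.839), *SEC24C* (0.838) and *CCT2* (0.838). *MAN2A2*, a mannosidase of the Golgi apparatus, was also the most like MEG3-B (r = 0.896). At 30 d it was 6.43, 6.63 and 7.05 in Cmat/+ and 6.93, 6.65 and 6.74 in C/C lambs, against 5.47 and 6.04 in +/Cpat and 5.60 and 5.58 in +/+ lambs. All lambs with a maternal C allele lay above those without, by 1.06 (SE 0.142, adjusted p = 0.0322 from limma), a pattern that its choice had already used. For the remaining probe sets the highest r was 0.844 for DLK1-B (*PAQR3*), 0.831 for MEG3-C (*ASH1L*), 0.775 for MEG3-D (*ABHD16A*) and 0.852 for MEG3-E (*ADRA2A*).

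**Figure D5:**
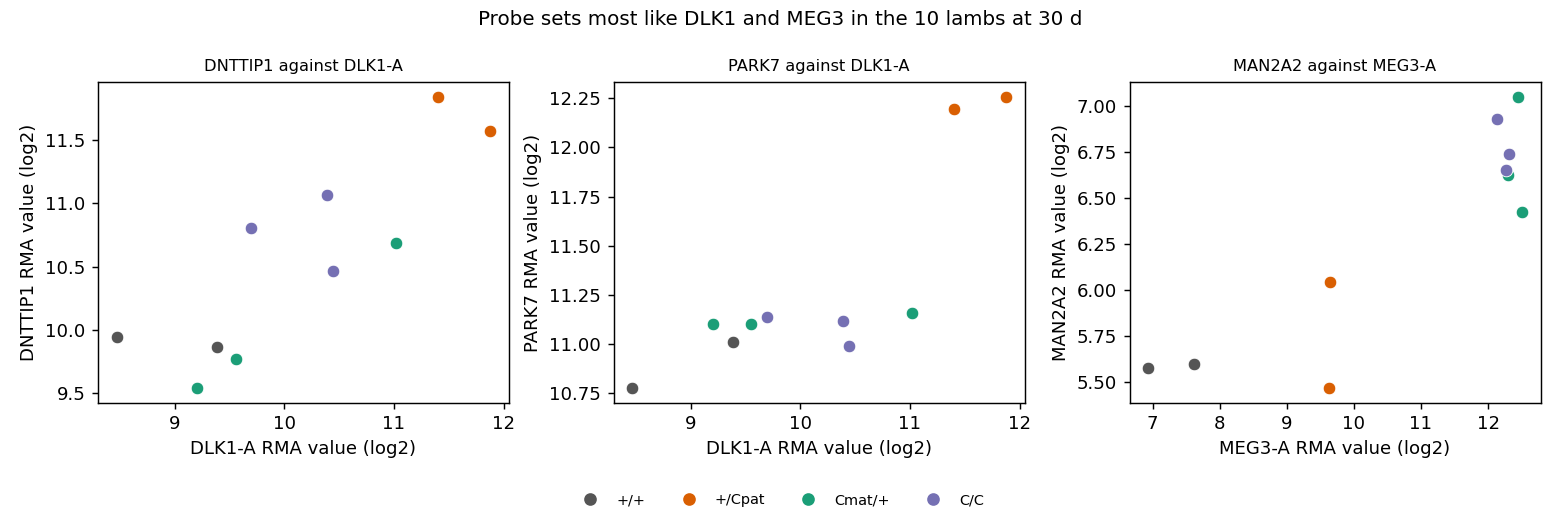
RMA values (log2) at 30 d of *DNTTIP1* and *PARK7* against *DLK1* (DLK1-A) and of *MAN2A2* against *MEG3* (MEG3-A), with 1 point for each of 10 lambs, coloured by genotype. *PARK7* was above 12 in the 2 +/Cpat lambs alone, whereas *DNTTIP1* of the C/C lambs, at 10.47 to 11.06, lay between the +/Cpat and +/+ lambs.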

How the data were processed

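The authors interpreted the images of 22 arrays with MAS5 and deposited linear intensity values without scaling, and also deposited log2 values made with RMA, which corrects background, normalizes and summarizes probes. Versions are not given in the sources used here. Columns were assigned to lambs from the labels. Of 24128 probe sets, 112 controls were left out, and 13292 of the others had 1 gene symbol in the platform annotation, 86 several and 10638 none. Group means were fitted with limma 3.58.1 in R 4.3.3 (lmFit, eBayes) to the RMA values of 16 arrays for the paternal allele and of 10 arrays at 30 d, with Benjamini-Hochberg adjusted p-values over 24016 probe sets called under 0.1, the study's threshold. The steps were tested on simulated data. Exact permutation tests relabeled lambs within strata. Lists used 1 probe set per gene, the one with the highest mean, and sums of MAS5 values whose trimmed mean on each array was set to 500 (2% trimmed at each end). As an alternative these were taken as log2 with an offset of 16. Other alternatives were a second quantile normalization, variances not shared between probe sets, a trended and robust prior, probe sets above the median brightness only, array weights, the array set as a block, the replicate number as a block, all 22 arrays together, and leaving out each age and lamb. Where that left 1 lamb in a group, it was assumed to vary like the others. Leaving out both dim arrays at 20 d was added after seeing the data. Named were all *DLK1* and *MEG3* probe sets, the listed genes of the domain, of each other list at most 4 with the smallest p for the paternal or maternal allele, and at most 5 most like each probe set (Pearson's r over 22 arrays, centred on age and array set). Outside that rule, *NOTCH1*, *HES1* and *SOX10*, the fibre genes *ACTA1* and *CKM*, and *PARK7* and *UCHL1* for the interaction were chosen after their values were seen. The genes and lists were chosen with earlier results of these data known. The number of arrays limits the precision, and p-values measure the spread between these lambs. Quantitative PCR and other muscles were not analysed here.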

Additional observations from a re-analysis of the deposited data

Results flagged for a closer look

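The difference made by the maternal C allele in *MEG3* (MEG3-A) at 30 d was not the same in lambs with and without a paternal C allele. It was 5.14 without (Cmat/+ minus +/+) and 2.59 with one (C/C minus +/Cpat), and the test of the difference between them gave -2.54 on the log2 scale (SE 0.245, adjusted p = 0.0120 from limma). Of the 5 *MEG3* probe sets only MEG3-A passed this test. The groups held 2 or 3 lambs, which is too few to look for single outlying lambs within a group.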

How the results depend on the processing

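The direction of the *DLK1* (DLK1-A) and *MEG3* (MEG3-A) differences over the 4 ages and of the *MEG3* differences for Cmat/+ minus +/+, C/C minus +/Cpat and the maternal allele, and their side of the threshold, held under every alternative run. With MAS5 values *DLK1* within ages was no longer called (1.76, 2.89 and 2.57 at 10, 20 and 30 d), nor was *MEG3* at 80 d (2.92). *MEG3* lost further calls with MAS5 values and, in the second value given, after their quantile normalization: age (1.39 and 1.35), +/Cpat minus +/+ at 30 d (1.85 and 1.86), the paternal allele (0.79 and 0.85) and the interaction (-2.13 and -2.01). With variances not shared between probe sets the same 4 results of *MEG3* were lost, at 1.21, 2.36, 1.09 and -2.54. Age was also lost with the trended prior and array weights (1.21 in both), without 20 d (0.98), without 30 d (0.84), within the set of arrays without 30 d (0.63) and without both dim arrays (1.00). With all 22 arrays in 1 fit the paternal allele (1.09) and the interaction (-2.54) were lost. The *DLK1* difference between +/Cpat and +/+ at 30 d (2.71) was called with all 22 arrays, with array weights and with the replicate block. Without each lamb in turn, *DLK1* gave 0.42 to 0.65 for age, 2.25 to 3.17 for +/Cpat minus +/+ at 30 d, 1.25 to 1.75 for the paternal allele and -0.11 to 0.80 for C/C minus Cmat/+, and *MEG3* gave 1.04 to 1.46 for age and 0.92 to 1.26 for the paternal allele. DLK1-B ranged from -0.18 to 0.13 for the maternal allele. The call of MEG3-C for the maternal allele was lost with variances not shared between probe sets (adjusted p = 0.239). The cause was not tested.

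Same-numbered lambs of +/+ and +/Cpat correlated, from the youngest to the oldest, with -0.01, 0.31, 0.11 and -0.11 in their deviations from group means. Outside 20 d these values gave no sign that replicate numbers pair the lambs. At 20 d, where r was 0.31, the number coincided with the array set. Both first lambs were on the dim arrays with the higher mean RMA value, and both second lambs were on arrays of the other set. Pairing by number and the array set could therefore not be told apart at 20 d. With the replicate block the *DLK1* difference at 30 d was 2.71 (adjusted p = 0.0404) and the paternal allele of *MEG3* 1.09 (adjusted p = 0.104), and it changed no other call of the brightest probe sets. It gave 795 probe sets over the 4 ages instead of 784, and 6 instead of 27 for the maternal allele. Over the 4 ages MAS5 values gave 51 and an array set block 1385, and for age MAS5 values gave 2 instead of 6180. All 10 arrays at 30 d are in 1 array set, so no block by set could be fitted there.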
